A study of Mus musculus with 10 samples.

Results

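Of 10 RNA-seq libraries made from sorted mouse fetal oocytes, 3 held Hba-a1, an alpha-globin gene of red blood cells, at a raw CPM of 200 or more. Raw CPM is a gene's count divided by the total count of its library, on the usual counts-per-million scale. These globin-high libraries are the ones labelled heterozygous 4, heterozygous 5 and deficient 5, with Hba-a1 at 302.8, 877 and 651 raw CPM. The library labelled heterozygous 4 is the one just inside the threshold, and deficient 2, at 89.2 raw CPM, is the one just outside it. The other 7 libraries, heterozygous 1 to 3 and deficient 1 to 4, make up the comparison group, and genotype was held as a covariate in the fit. Because the libraries were picked on a measured value, every difference between them and the other 7 is a description of these libraries and carries no p-value.

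All libraries are from live female germ cells sorted as GFP-positive from dissociated E16.5 gonads, per the labels. The GFP comes from an Oct4-EGFP transgene, for which both parents were homozygous (stock B6;129S4-Pou5f1tm2Jae/J), and the strain is labelled C57BL/6. Parents were heterozygous for the Taf4b-deficiency mutation, and 5 libraries are labelled heterozygous and 5 deficient for Taf4b. The protein TAF4b is a germ cell form of a subunit of TFIID, the complex that binds core promoters. Libraries without the mutation were not analysed here, so every library carries at least 1 mutant allele by its label. The labels do not say whether a library is 1 embryo or a pool, so the p-values given below measure only the spread between these libraries.

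Fetal oocytes enter meiosis when the transcription factors STRA8 and MEIOSIN switch on the meiotic genes. They then move through a long prophase in which cohesins build chromosome axes, SPO11 cuts DNA at sites marked by PRDM9, the recombinase DMC1 takes part in repair against the homologous chromosome, and the synaptonemal complex holds homologues together. Stra8 is known as an early gene of this programme, whereas Sohlh1, Nobox, Lhx8 and Figla encode transcription factors that oocytes use as they approach follicle formation. Red blood cells are packed with globin RNA, so a few of them carried over from a dissociated organ can show in its RNA.

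Depth overlapped but was mostly lower in the globin-high libraries. They had 18174863 to 20600067 counts, against 16707216 to 26983565 in the others. Of the others only deficient 2, at 16707216 counts, was shallower, and the rest had 21175390 or more. The globin-high libraries had the most genes with at least 10 counts, at 19621, 19873 and 20324 (heterozygous 4, heterozygous 5 and deficient 5 by label), against 18379 to 19547 in the others. Their share of counts on mitochondrial genes was also the highest, at 3.04%, 3.31% and 3.34% against 0.853% to 2.56%. By the litter dates of the labels, 2 of the 3 libraries of the third date were globin-high, 1 of the 4 of the second date and 0 of the 3 of the first date. Taf4b, the gene altered by the mutation, was at 271, 290.5, 142, 65.8 and 101 CPM in heterozygous 1 to 5 and at 80.8, 81.8, 80.2, 73.7 and 58.3 CPM in deficient 1 to 5. The library labelled heterozygous 4 thus lay within the deficient range, so Taf4b does not check its label. From here on CPM values are scaled by TMM (trimmed mean of M-values), which evens out differences in RNA makeup. The log2 differences are globin-high minus other libraries from an edgeR fit with genotype, some given with a standard error (SE). That SE is the size of the difference divided by the square root of the quasi-likelihood F value of the globin-high term. Because the libraries were picked on a measured value, no test is read from the SE.

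The rule's globin gene was accompanied by the other adult globin genes and by 1 gene of heme synthesis. Hbb-bs, a beta-globin gene (ENSMUSG00000052305, GRCm38 chromosome 7, 103826534 to 103828096, minus strand), was at 21.5, 34.5, 50.5, 239.5 and 748 CPM in heterozygous 1 to 5 and at 41.3, 63.4, 42.8, 63.99 and 516 CPM in deficient 1 to 5. All 3 globin-high libraries lay above all others, and the log2 difference was 3.60 ± 0.32 (SE). Hba-a1 itself (chromosome 11, 32283511 to 32284465, plus strand) was at 23.97, 38.5, 102, 261 and 798 CPM and 36.1, 91.5, 50.2, 61.1 and 591 CPM in the same order. Alas2, the first enzyme of heme synthesis in red cells, was at 13.1, 29.6 and 18.997 CPM in the libraries labelled heterozygous 4, heterozygous 5 and deficient 5, and at 0.767 to 4.84 CPM in the others. Hba-a2 and Hbb-bt, near-identical copies of the other globin genes whose reads the counting may have split, had log2 differences of 2.99 and 3.77.

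Other erythroid genes were not apart in the same way. A gene is called apart here when all 3 globin-high libraries lie beyond all 7 others and the fitted difference is 2-fold or more (1 on the log2 scale). By this rule 899 of 19136 genes tested (4.7%) were apart as higher and 1074 (5.61%) as lower. Each count of apart list members given below is to be set against these shares. Of 28 erythroid genes listed, 18 were tested and 5 were apart, all higher: Hba-a1, Hba-a2, Hbb-bs, Hbb-bt and Alas2. Since Hba-a1 chose the libraries, nothing is read from that count. Klf1, a transcription factor of red cell precursors, overlapped at 3.74, 5.50 and 3.70 CPM against 1.77 to 4.97 CPM, and so did Gata1 at 1.37, 0.825 and 2.34 CPM against 0.837 to 4.37 CPM. Summed over the list without Hba-a1 and its near-copy Hba-a2, raw CPM ran from 483 to 1312 in the globin-high and from 140 to 232 in the other libraries, a sum that still holds the beta-globin genes. The embryonic globin gene Hbb-bh1 had 0 counts in every library, globin-high or not.

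**Figure D1:**
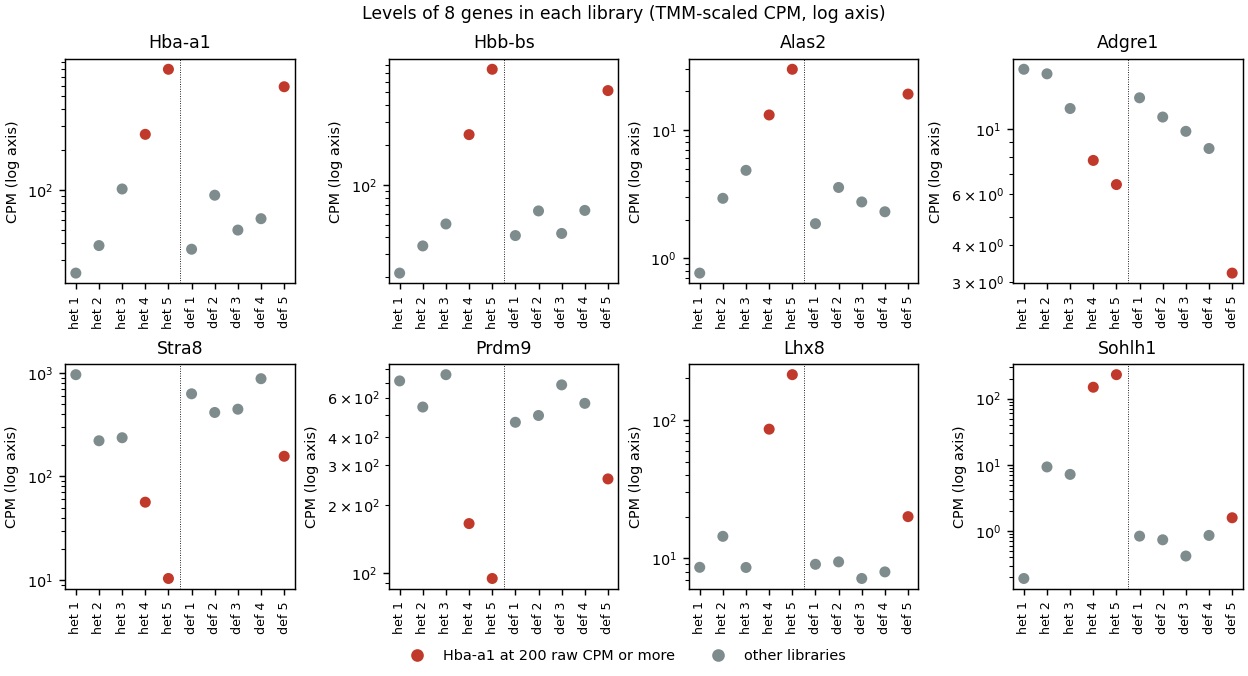
TMM-scaled CPM of 8 genes (log axes) in each library, heterozygous 1 to 5 and deficient 1 to 5 from left to right. Each point is 1 library and red marks the globin-high libraries. Red points are above all others for Hba-a1, Hbb-bs, Alas2 and Lhx8 and below all others for Adgre1, Stra8 and Prdm9, while for Sohlh1 deficient 5 lies at 1.59 CPM, below heterozygous 2 and 3.

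White blood cell genes went in both directions. Most had negative differences, more so in deficient 5 than in the libraries labelled heterozygous 4 and 5. Adgre1, the macrophage surface protein F4/80, was at 16.01, 15.4, 11.8, 7.81 and 6.46 CPM in heterozygous 1 to 5 and at 12.8, 10.99, 9.82, 8.58 and 3.22 CPM in deficient 1 to 5. All 3 globin-high libraries were below all others, with a log2 difference of -1.27 ± 0.25 (SE). It was the 1 macrophage gene apart out of 14 tested, against 5.61% of all genes tested apart as lower. Of these 14, 11 had a negative and 3 a positive difference, and the list's median log2 difference was -0.59, against -0.0087 over all genes tested. That median was -0.23 among heterozygous and -1.26 among deficient libraries, and -0.20 when deficient 5 was left out. The list's levels in heterozygous 4 and 5, at 0.16 and -0.0051, lay within the -0.49 to 0.56 of the libraries that are not globin-high. Csf1r, the receptor for the macrophage growth factor CSF1, was at 31.9, 17.3 and 8.90 CPM in the libraries labelled heterozygous 4, heterozygous 5 and deficient 5 and at 25.3 to 54.8 CPM in the others, so the groups overlapped. The 3 positive members were Mrc1, Lyz2 and F13a1. Mrc1, the mannose receptor, was at 29.6, 35.2 and 43.5 CPM in the globin-high libraries, deficient 5 being the highest of all, and at 8.60 to 38.1 CPM in the others. Lyz2, a lysozyme, was at 123.5 CPM in heterozygous 5, the highest of all, and at 37.2 CPM in deficient 5, the lowest of all. The macrophage list summed to 190 to 390 raw CPM in the globin-high and 215 to 381 raw CPM in the other libraries. Deficient 5 had the lowest sum, and none of the listed members was at 0 in all globin-high libraries. In RNA of pooled cells, fewer cells of a type and less RNA per cell cannot be told apart. Of platelet and granulocyte genes 3 were tested and 0 were apart.

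Genes of the ovarian soma were partly higher. Kitl, the ligand of the KIT receptor made by pregranulosa cells, was at 31.2, 30.5 and 29.7 CPM in the globin-high libraries (labels in the same order as above) and at 8.79 to 28.4 CPM in the others. Amhr2, the receptor of anti-Müllerian hormone in the same cells, was at 37.7, 27.03 and 22.4 CPM against 4.79 to 21.97 CPM. These 2 of 13 pregranulosa genes tested were apart as higher, against 4.7% of all genes tested. The list summed to 124 to 135 raw CPM in the globin-high and 41.9 to 135 in the other libraries. Of 13 stromal genes, Dcn, a matrix proteoglycan, and Nr2f2, a transcription factor of stromal cells, were apart as higher, at 5.63, 6.00 and 13.2 CPM against 0.553 to 4.97 CPM and at 6.53, 8.80 and 5.51 CPM against 1.04 to 4.09 CPM. These stromal genes also stand against 4.7% of all genes tested apart as higher. The stromal list summed to 117 to 120 raw CPM against 32.6 to 114. Of 13 endothelial genes and 8 surface epithelium genes, 0 were apart. A positive difference was found in 11 of 13 pregranulosa, 12 of 13 stromal, 12 of 13 endothelial and 7 of 8 surface epithelium genes. Bmp2, of the pregranulosa list, went the other way, at 3.55, 5.64 and 4.58 CPM against 4.73 to 12.6 CPM. So did Krt7, of the surface epithelium list, at 4.17, 2.84 and 8.15 CPM against 6.95 to 9.42 CPM. Both overlapped. The endothelial median log2 difference was 1.08, but deficient 1, which is not globin-high, had the highest level of that list. Foxl2, which defines pregranulosa cells, was at 2.18, 1.56 and 3.75 CPM against 0.0432 to 5.91 CPM and overlapped. The part of these cells in the differences of other genes was not tested.

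The 1973 genes apart in either direction were 10.3% of those tested. Without regard to size, the globin-high libraries lay above all others in 1673 genes (8.74%) and below in 2233 (11.7%). At 4-fold or more, 122 genes (0.638%) were apart as higher and 106 (0.554%) as lower. Of the apart genes 45.6% were higher. That split depends on the scaling: with library totals alone it was 76.0% higher (1663 higher and 526 lower), with the median of all genes at 0.24 instead of -0.0087, and with limma on TPM it was 76.5%, with 57.1% when low-count genes were kept. Without deficient 5, 1923 genes were apart as higher and 1941 as lower.

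The pattern was then compared between the genotypes, which share no library. The same Hba-a1 threshold chose the globin-high libraries in both, so genes that follow Hba-a1 go the same way by choice. The comparison is therefore not an independent repeat. Among the heterozygous libraries, the ones labelled 4 and 5 lay above heterozygous 1 to 3 by 2-fold or more without overlap in 2299 genes (12%), and below in 2270 (11.9%). Of the 2299 genes, 2012 (87.5%) were also higher in deficient 5 than in deficient 1 to 4, against 47.8% of all genes tested. In 1462 of them (63.6%) deficient 5 lay above each of deficient 1 to 4, against 26.95% of all genes. Of the 2270 lower genes, 2126 (93.7%) were also lower in deficient 5, against 52.2% of all genes, and in 1767 (77.8%) deficient 5 lay below each of the others, against 29.3%. The differences were smaller in deficient 5. Their medians were 1.46 in heterozygous and 0.70 in deficient libraries for the higher genes, and -1.44 and -0.78 for the lower genes. By itself, deficient 5 lay 2-fold or more above the other deficient libraries in 1213 genes (6.34%) and below them in 1229 (6.42%). All 10 libraries were scaled together, and these shares carry no test.

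**Figure D2:**
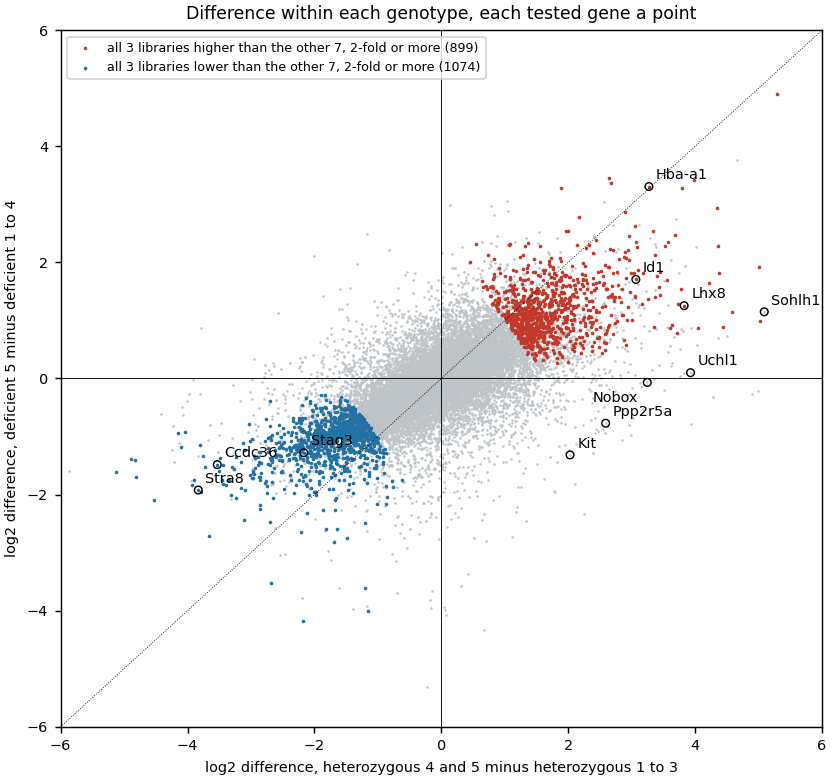
Each point is 1 of 19136 genes tested, with the log2 difference of the libraries labelled heterozygous 4 and 5 from heterozygous 1 to 3 on the x axis and that of deficient 5 from deficient 1 to 4 on the y axis. Red and blue mark the 899 higher and 1074 lower genes, 8 points lie outside the axes, and Uchl1, Nobox, Ppp2r5a and Kit lie at or below 0.10 on the y axis.

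The genes apart as lower and higher differed in kind. Genes apart as lower were well expressed, with a median over genes of the mean log2 CPM of 5.25, against 1.52 for genes apart as higher and 3.04 for all genes tested. Protein-coding genes made up 82.7% of the lower, 72.3% of the higher and 75.7% of all genes tested. Among protein-coding genes, the median length of the longest annotated transcript was 3804 bases for the lower, 2612 for the higher and 3376 for all genes. The X chromosome held 51 of the higher genes (5.67%) and 52 of the lower (4.84%), against 769 of all tested (4.02%).

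Genes that open the meiotic programme were lower. Stra8 (ENSMUSG00000029848, chromosome 6, 34920163 to 34939344, plus strand) was at 965, 221, 237, 56.4 and 10.3 CPM in heterozygous 1 to 5 and at 630.4, 416, 447, 882 and 157 CPM in deficient 1 to 5. The 3 globin-high libraries were the lowest of all, and within each genotype the gap was wide. The log2 difference was -2.93 ± 0.65 (SE), with -3.83 among heterozygous and -1.92 among deficient libraries. Gm4969, the mouse gene for MEIOSIN, the partner of STRA8, was at 126, 119 and 213 CPM in the globin-high libraries and 204 to 681 CPM in the others, which overlapped by 1 library, heterozygous 3 at 204 CPM. Meioc, which keeps cells in the meiotic programme, was at 318, 250.4 and 494 CPM against 624 to 1009 CPM. Rec8, a cohesin subunit loaded before meiotic prophase, was at 49.8, 10.4, 24.8, 7.01 and 2.34 CPM in heterozygous 1 to 5 and 53.2, 28.6, 42.2, 49.6 and 11.02 CPM in deficient 1 to 5. Deficient 5 and heterozygous 2 overlapped narrowly for Rec8, which is therefore not counted as apart. Ythdc2, the RNA-binding partner of MEIOC, showed a log2 difference of -0.18 ± 0.16 (SE), and Rbm46 one of 0.11 ± 0.19. Of 9 tested genes of meiotic entry, 2 (Stra8 and Meioc) were apart as lower, against 5.61% of all genes tested, and the median log2 difference was -1.07. The difference was negative in 8 of 9 over all libraries and in 7 of 9 among heterozygous libraries. In deficient 5 it was negative in 9 of 9, against 52.2% of all genes tested.

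Axis and synaptonemal complex genes split into lower and level members. Stag3, a cohesin subunit found in meiotic cells, was at 1544, 2014, 1976, 536 and 285 CPM in heterozygous 1 to 5 and at 1305, 1263, 2275, 1102 and 613 CPM in deficient 1 to 5, with a log2 difference of -1.78 ± 0.31 (SE). Rad21l, another meiotic cohesin subunit, was at 28.3, 27.4 and 38.1 CPM in the globin-high libraries and 59.6 to 106 CPM in the others. Hormad2, a protein of unsynapsed axes, was at 94.97, 74.04 and 144 CPM against 226 to 354 CPM. Syce1, of the central element of the synaptonemal complex, was at 269.7, 291 and 423 CPM against 487 to 1383 CPM. These 4 of 14 tested genes were apart as lower and 0 as higher, against 5.61% and 4.7% of all genes tested. Sycp1, which forms the transverse filaments, was not lower: it was at 1412, 1933 and 1649.8 CPM against 803 to 1689.6 CPM, a log2 difference of 0.42 ± 0.23 (SE). Hormad1 and Syce3 had log2 differences of 0.14 ± 0.21 and 0.048 ± 0.18. The list's median was -0.55.

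Genes for making and repairing meiotic DNA breaks held the most apart members of the meiotic lists. Prdm9, the histone methyltransferase that marks break sites, was at 712, 545, 759, 166 and 94.6 CPM in heterozygous 1 to 5 and at 466, 500.0, 684, 566 and 262 CPM in deficient 1 to 5. All 3 globin-high libraries were below all others, at a log2 difference of -1.79 ± 0.29 (SE). Ccdc36, the gene for the break-promoting axis protein IHO1, was at 270.3, 188, 371, 32.8 and 15.1 CPM and 208, 207, 238, 223 and 78.3 CPM in the same order, with -2.56 ± 0.41 (SE). Its lowest values were 32.8 and 15.1 CPM in the libraries labelled heterozygous 4 and 5. Mei1 and Mei4, which are required for breaks, were at 88.6, 64.3 and 97.5 CPM against 167 to 453 CPM, and at 9.28, 9.39 and 9.92 CPM against 21.5 to 41.5 CPM. Dmc1, the meiotic recombinase, was at 169.7, 121 and 323 CPM against 359 to 493 CPM. Gm960, 4930432K21Rik and Rad51ap2 were also apart, with log2 differences of -1.56, -1.28 and -1.19. In all, 8 of 18 tested genes were apart as lower, against 5.61% of all genes tested. At any size 13 lay below all others, against 11.7% of all genes tested, and the list's median was -0.88.

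Not all break genes were low. Spo11, the enzyme that cuts, was at 306, 270.5 and 414 CPM in the globin-high libraries and 245 to 571 CPM in the others, a log2 difference of -0.12 ± 0.25 (SE). Psmc3ip and Mnd1 encode the partners in a complex that helps DMC1. Psmc3ip was above all others in the globin-high libraries, at 140.1, 136 and 118 CPM against 62.2 to 115 CPM, short of 2-fold. Mnd1 was at 23.96 and 38.9 CPM in the libraries labelled heterozygous 4 and 5, at 12.3 CPM in deficient 5 and at 8.34 to 12.9 CPM in the others, so deficient 5 lay inside the range.

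Among crossover genes, Msh5 was lower while its partner Msh4 was level. Msh5 was at 312, 299, 505, 86.7 and 45.3 CPM in heterozygous 1 to 5 and at 276, 285, 335, 294 and 165 CPM in deficient 1 to 5, a log2 difference of -1.74 ± 0.34 (SE). Msh4, which forms a clamp with MSH5 on recombination intermediates, was at 177, 248, 205, 191 and 188 CPM and 199, 192, 209, 179.9 and 199 CPM in the same order, with -0.076 ± 0.16 (SE). Shoc1 and Mcmdc2, which also stabilise crossover intermediates, had log2 differences of -1.26 ± 0.20 and -1.21 ± 0.26 (SE). With Msh5 they were the 3 of 13 tested crossover genes apart as lower, against 5.61% of all genes tested. At any size 7 lay below all others, against 11.7% of all genes tested. Rnf212, which marks future crossovers, was above all others at 137, 145 and 148 CPM against 97.98 to 134 CPM, short of 2-fold.

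The promoters of apart genes were searched for CNCCTCAG, the letters of the motif that STRA8 is known to bind, on either strand of the 250 bases upstream of the RefSeq start. Of the genes apart as lower, 771 of 1074 had a promoter in the RefSeq table and 101 of these (13.1%) held the motif. Of the genes apart as higher, 26 of 594 matched (4.38%) held it. The share was 7.19% of 12385 matched genes tested and 6.39% of 27025 promoters of the table. Expression level and gene kind also differ between these groups, as given above, and their part in the shares was not tested. Among genes of the 4 meiotic lists, 2 of 14 matched genes apart as lower (14.3%) and 3 of 28 others (10.7%) held the motif. A match is a description of the letters and not a binding site. The 2 are Hormad2 (chr11:4441083-4441332, minus strand) and Msh5 (chr17:35046623-35046872, minus strand). Their upstream sequences in GRCm38.p6 from RefSeq are shown because they carry the match. It is in capitals, reads as the reverse complement of the motif, and ends 101 and 74 bases before the RefSeq start. In the gene coordinates deposited by the authors, Msh5 begins further upstream, at 35046745, so its match lies inside that gene. Hormad2 begins at 4441105 in those coordinates, so its match stays upstream.
Hormad2: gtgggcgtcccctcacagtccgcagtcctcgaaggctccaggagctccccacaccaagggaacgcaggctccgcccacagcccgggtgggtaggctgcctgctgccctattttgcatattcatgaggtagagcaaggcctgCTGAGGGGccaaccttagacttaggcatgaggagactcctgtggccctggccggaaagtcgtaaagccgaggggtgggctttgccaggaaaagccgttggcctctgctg
Msh5: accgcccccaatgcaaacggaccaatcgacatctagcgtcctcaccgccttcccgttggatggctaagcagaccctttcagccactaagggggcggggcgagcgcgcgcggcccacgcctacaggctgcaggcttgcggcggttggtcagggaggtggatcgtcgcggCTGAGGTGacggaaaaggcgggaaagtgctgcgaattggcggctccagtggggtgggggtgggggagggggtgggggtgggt

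**Figure D3:**
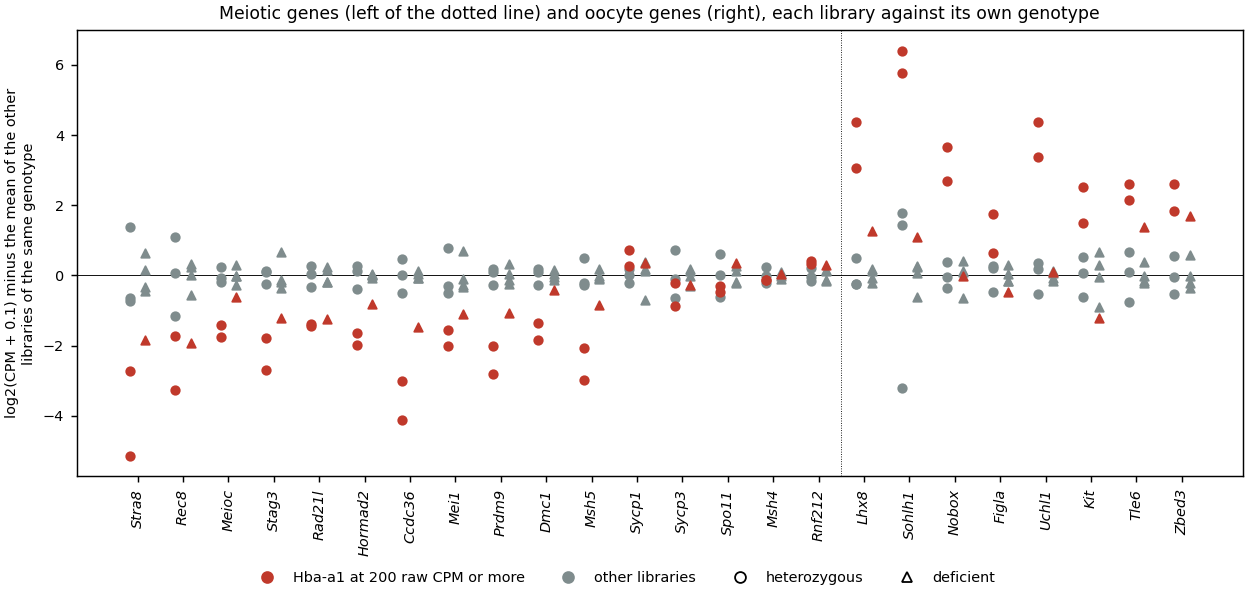
Each point is the log2 of CPM plus 0.1 of 1 library, less the mean of the other libraries of the same genotype that are not globin-high, for 16 meiotic genes (left of the dotted line) and 8 oocyte genes (right). Circles are heterozygous, triangles deficient and red marks globin-high; red symbols of both shapes lie low for Stra8 to Msh5 and nearer to 0 for Sycp1 to Rnf212, whereas for Nobox, Figla, Uchl1 and Kit only the circles lie high.

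Oocyte transcription factors were high in the libraries labelled heterozygous 4 and 5, and less so or not at all in deficient 5. Sohlh1 (chromosome 2, 25842995 to 25847248, minus strand) was at 0.192, 9.30, 7.17, 149 and 231 CPM in heterozygous 1 to 5 and at 0.837, 0.737, 0.419, 0.858 and 1.59 CPM in deficient 1 to 5. Deficient 5 was above the other deficient libraries but below heterozygous 2 and 3. Nobox (chromosome 6, 43303674 to 43309554, minus strand) was at 12.6, 10.1, 16.9, 84.8 and 166 CPM in heterozygous 1 to 5 and at 7.25, 6.02, 5.82, 3.48 and 5.38 CPM in deficient 1 to 5, and its log2 difference was 3.25 among heterozygous and -0.068 among deficient libraries. Lhx8 was the 1 member of 8 tested that was apart, as higher, against 4.7% of all genes tested. It was at 8.58, 14.4, 8.56, 85.7 and 213 CPM and 9.02, 9.39, 7.12, 7.95 and 19.97 CPM in the same order. Its log2 difference was 3.04 ± 0.45 (SE), with 3.83 among heterozygous and 1.25 among deficient libraries. Figla was at 219, 131, 211, 283 and 618 CPM and 145, 167, 146, 199 and 116 CPM, so deficient 5 had the lowest value of all. The list's median was 1.43 among heterozygous and 0.049 among deficient libraries. Sohlh2, the relative of Sohlh1, was lower, at 123, 109.6 and 82.3 CPM against 105 to 186 CPM, with overlap.

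Of 12 tested genes of oocyte growth and the maternal store, 4 were apart as higher, deficient 5 included, against 4.7% of all genes tested. Tle6, a member of the subcortical maternal complex, was at 13.1, 35.3, 23.9, 98.8 and 137 CPM in heterozygous 1 to 5 and at 15.9, 10.4, 12.1, 10.9 and 31.6 CPM in deficient 1 to 5. Each globin-high library was above the others of its genotype, but deficient 5 lay below heterozygous 2. Ooep, of the same complex, was at 4.88, 20.6 and 2.25 CPM against 0.346 to 2.23 CPM, and Khdc3, also of that complex, at 1.47, 1.56 and 1.90 CPM against 0.303 to 1.16 CPM. Zbed3, which binds the complex, was at 13.3, 22.8 and 7.98 CPM against 1.84 to 5.40 CPM, a log2 difference of 2.03 ± 0.31 (SE). Npm2, a chaperone of egg chromatin, was at 3.93, 4.40 and 4.01 CPM against 1.02 to 2.84 CPM. Ooep, Khdc3, Npm2 and Zbed3 were these 4, of 22 genes listed, and the median was 1.19 (1.77 among heterozygous and 0.90 among deficient libraries). Uchl1, a ubiquitin hydrolase of oocytes, was at 10.4, 9.21, 5.66, 85.2 and 171 CPM and 6.32, 5.96, 7.03, 7.32 and 7.14 CPM, so deficient 5 was level with the other deficient libraries. Kit, the receptor of oocytes for KITL, was at 22.4, 16.3, 10.2, 43.6 and 89.2 CPM and 26.2, 11.6, 34.1, 20.7 and 9.30 CPM, with deficient 5 the lowest of all. Dppa3, a maternal factor also expressed in primordial germ cells, was at 21.8, 2.47, 1.86, 19.4 and 114 CPM and 24.9, 12.5, 8.80, 18.6 and 13.3 CPM, with heterozygous 5 alone far above the rest.

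Whether the globin-high difference differed between genotypes was tested by an interaction term in edgeR's quasi-likelihood test, which rests on 1 deficient library picked on a measured value and also depends on the label of heterozygous 4. The test called 0 of 19136 genes (0%) at an adjusted p under 0.05, and 831 had an unadjusted p under 0.05. DESeq2 called 23 and limma on TPM called 0. Without any real difference, a share of 0.05 of all genes tested would have an unadjusted p under 0.05, which is more than these 831. Nothing is read from that count. With 1 deficient library, a gene that was not called is not shown to differ alike in both genotypes, and the values that follow are descriptions. Uchl1 had log2 differences of 3.93 among heterozygous and 0.10 among deficient libraries, and Ppp2r5a, a subunit of protein phosphatase 2A, had 2.59 and -0.77. For Ckb, a creatine kinase, the values were 2.56 and -0.86, and for Kit 2.03 and -1.32. Lower genes named on the other side were Tesmin, a germ cell metallothionein-like protein, at -2.99 and -1.04, and Slc25a25, a mitochondrial carrier, at -3.51 and -1.60. In these, the difference had 1 sign in both genotypes and was smaller in deficient 5. Without the library labelled heterozygous 4, edgeR called 2 genes, and without deficient 5 the term cannot be estimated.

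General germ cell genes gave no common direction. Ddx4, an RNA helicase found in germ cells, and Dazl, a regulator of translation in them, were at 571, 619 and 389 CPM against 498 to 874 CPM and at 1597, 1769.8 and 1227 CPM against 1580.1 to 2735 CPM, both with overlap. Tex15 and Tex14, which act in meiotic and germ cell development, were the 2 of 20 tested pan-germ cell genes apart as lower, with log2 differences of -1.09 ± 0.21 and -1.23 ± 0.21 (SE). For this and the next list, the shares of all genes tested were 5.61% apart as lower and 4.7% as higher. Tdrd9, a helicase of the piRNA pathway, was at 24.9, 66.9, 38.9, 215 and 272 CPM in heterozygous 1 to 5 and 39.5, 30.7, 42.4, 21.99 and 35.3 CPM in deficient 1 to 5, so it stood out in the libraries labelled heterozygous 4 and 5 only. The list's median was 0.11 and turned negative in 5 of 20 alternative analyses. Among 19 genes of primordial germ cells and pluripotency, Prdm1, which specifies germ cells, and Alpl, the alkaline phosphatase used to stain them, were apart as lower at 2.23, 2.06 and 3.48 CPM against 5.64 to 13.1 CPM and 6.34, 4.17 and 8.15 CPM against 9.07 to 46.3 CPM. Tcl1, an AKT coactivator, was apart as higher at 13.9, 42.7 and 3.39 CPM against 0.698 to 2.93 CPM. Lin28a, an RNA-binding protein of immature germ cells, was at 4.89, 2.61, 0.994, 0.521 and 0.412 CPM and 7.77, 5.71, 5.40, 6.28 and 2.56 CPM, lowest in the libraries labelled heterozygous 4 and 5.

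Of 27 cell cycle genes tested, 19 had a negative difference, 5 were apart as lower (Top2a, Bub1, Mcm5, Ccne1 and Ccne2), 1 as higher (Cdk1), and the median was -0.57. For this and the other lists given here, the shares of all genes tested were 5.61% apart as lower and 4.7% as higher. Top2a, the topoisomerase of dividing cells, was at 178, 136 and 317 CPM in the globin-high libraries and 456 to 652 CPM in the others, and Ccne2, an S-phase cyclin, at 137, 128 and 177 CPM against 244 to 542 CPM. Mcm5, a subunit of the replicative helicase, was at 397, 255 and 399.7 CPM against 514 to 1165 CPM. Cdk1, the kinase of M-phase entry, was higher at 117, 145 and 70.8 CPM against 36.2 to 67.8 CPM. Its partner Ccnb2 was at 323, 354 and 190.5 CPM against 68.01 to 222 CPM, overlapping through heterozygous 3. Of 17 TFIID genes, Taf6 was the 1 apart, as lower, at 212, 146 and 237 CPM against 254 to 775 CPM. The share of all genes tested that were apart as lower was 5.61%, so nothing is read from that count. Among 19 apoptosis genes and p53 targets, Trp53, which encodes p53, and Bcl2, a survival protein, were apart as higher. Trp53 was at 12.5, 15.4, 13.8, 29.6 and 30.2 CPM in heterozygous 1 to 5 and 13.2, 13.1, 13.3, 12.7 and 23.8 CPM in deficient 1 to 5, with all 3 globin-high libraries about level with each other. The p53 targets Sesn1 and Sesn2, which respond to metabolic stress, were apart as lower at log2 differences of -1.15 ± 0.25 and -2.12 ± 0.33 (SE).

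Lists that track handling and RNA makeup had positive medians in the globin-high libraries, though in most no more than 1 member was apart, and their part in the other results was not tested. Immediate early and heat shock genes had a median log2 difference of 0.60 over 19 tested, with 1 apart (against 4.7% of all genes tested), Btg2, at 129, 123 and 92.9 CPM against 29.6 to 80.7 CPM. Fos was above all others at 269.6, 192 and 158 CPM against 79.4 to 153 CPM, short of 2-fold. Mitochondrially encoded protein genes had a median of 0.86, and all 13 tested were positive in both genotypes, with 1 apart, mt-Nd4l. Clustered histone genes had a median of 0.88 over 51 tested and 6 apart as higher, against 4.7% of all genes tested. However, deficient 5 stood far above the rest at a list level of 1.296, and the levels overlapped between the groups. Hist1h4i, for example, was at 104 CPM in deficient 5 and at 20.6 and 20.3 CPM in the libraries labelled heterozygous 4 and 5, against 3.07 to 25.996 CPM in the others. Ribosomal protein genes had a median of 0.41 over 81 tested, with levels that overlapped between the groups (-0.051 to 0.45 against -1.29 to 0.41) and 1 apart, Rpl10l, a germ cell copy of Rpl10, at 119, 144 and 84.6 CPM against 38.2 to 54.5 CPM.

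A list level, the median over tested members of log2 CPM less the gene's mean over the 10 libraries, summarises each list per library. For meiotic entry the levels were 1.00, -0.30, -0.17, -0.41 and -1.25 in heterozygous 1 to 5 and 0.17, 0.092, 0.54, 0.33 and -0.32 in deficient 1 to 5. For break formation they were 0.46, 0.12, 0.55, -0.65 and -0.89 and 0.19, 0.14, 0.16, 0.34 and -0.27, and the 3 globin-high libraries were the lowest in both lists. For oocyte transcription factors they were -0.17, -0.25, 0.38, 0.74 and 2.098 and -0.58, -0.86, -0.22, -0.74 and -0.61, so deficient 5 lay among the other deficient libraries. The erythroid list is left out of the count that follows because the rule's gene belongs to it; without Hba-a1 and Hba-a2 its level overlapped, at 0.24 to 0.69 against -0.48 to 0.57. Of the other 23 lists, 9 had levels that did not overlap between the globin-high and the other libraries. Higher were ovarian stroma, oocyte growth and maternal, immediate early and mitochondrially encoded genes. Lower were meiotic entry, axis, break formation, crossover and cell cycle genes. Some were separated narrowly between the nearest globin-high and other library. These levels were -0.320 against -0.301 for meiotic entry, -0.218 against -0.174 for axis and 0.428 against 0.379 for mitochondrially encoded genes. The median log2 differences of these 9 lists kept their sign in each of 20 alternative analyses, which reuse the same libraries. Overlapping lists such as macrophage, endothelial, pregranulosa, TFIID and ribosomal protein genes also kept theirs, so a kept sign does not set the 9 lists apart. Of single genes, 8.74% lay above and 11.7% below all others at any size, though a list level pools many genes.

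**Figure D4:**
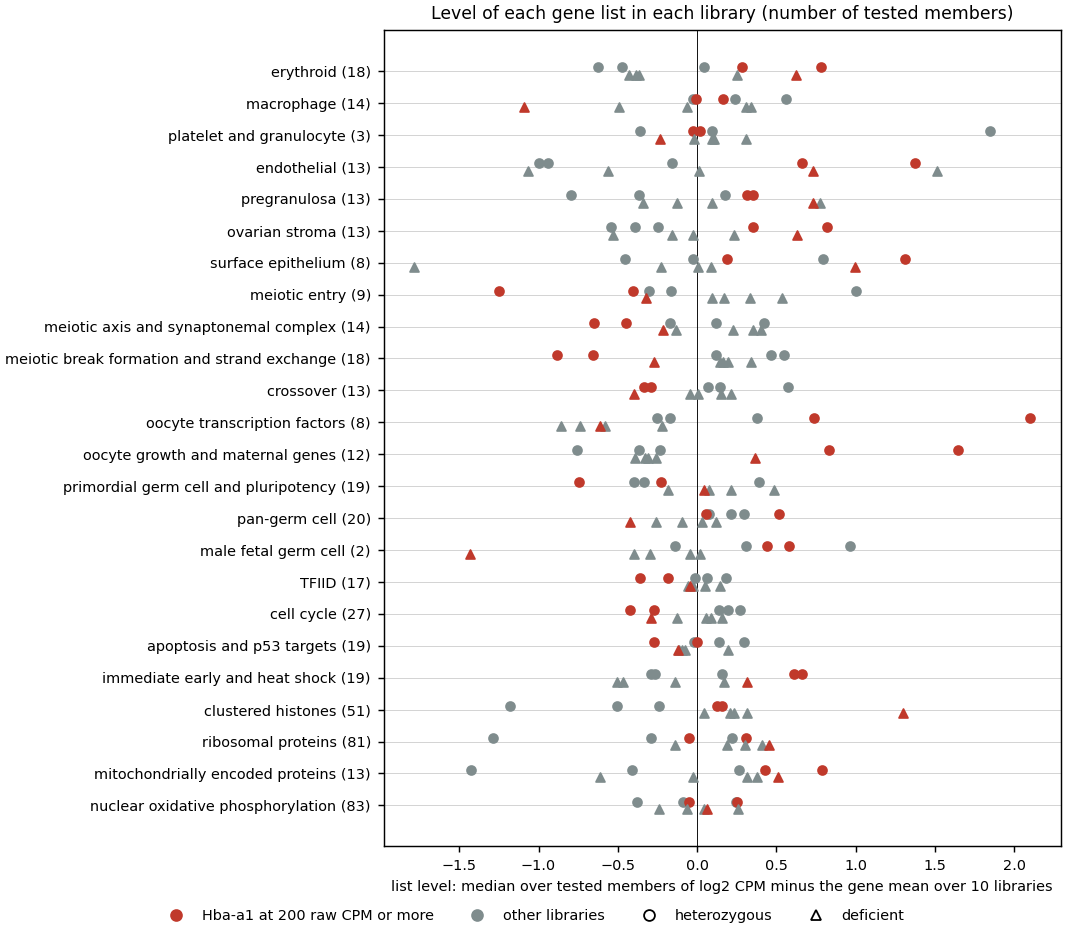
Level of each of 24 gene lists (number of tested members in parentheses) in each library, on the log2 scale; circles are heterozygous, triangles deficient and red marks the globin-high libraries. Red symbols lie left of all others for the 4 meiotic lists and for cell cycle, and the oocyte transcription factor row shows 2 red circles at 0.74 and 2.098 and the red triangle at -0.61.

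Outside the lists, the largest higher differences among genes beyond the rest of both genotypes included those of Tspan18, Aig1, Id1 and Ablim1. Tspan18, a tetraspanin (chromosome 2, 93201760 to 93334505, minus strand), was at 2.78, 5.91, 2.55, 56.8 and 122 CPM in heterozygous 1 to 5 and 6.51, 3.75, 6.28, 2.08 and 10.3 CPM in deficient 1 to 5. Id1, an inhibitor of DNA binding that BMP signals induce, was at 100.2, 90.4, 78.3, 519 and 983 CPM in heterozygous 1 to 5 and 89.2, 76.3, 62.98, 77.99 and 250.1 CPM in deficient 1 to 5, a log2 difference of 2.59 ± 0.27 (SE). Aig1 was at 63.6, 97.1 and 14.3 CPM against 4.24 to 9.17 CPM. Ablim1, an actin-binding protein, was above the rest of its genotype in each globin-high library at 157, 219 and 35.1 CPM, but deficient 5 lay below heterozygous 2 at 53.4 CPM.

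The largest lower differences, besides Stra8 and Ccdc36, were those of Tuba3b, Tuba3a, Fgf11, Syne4, M1ap, Slc25a25, Tppp and Sh2b2. M1ap, a meiosis gene (chromosome 6, 82946902 to 83030309, plus strand), was at 3179.7, 1763, 7772, 497 and 141 CPM in heterozygous 1 to 5 and 1575, 1498, 1776, 1703 and 569 CPM in deficient 1 to 5, a log2 difference of -2.68 ± 0.57 (SE). Heterozygous 3 was far above all others, and the 3 globin-high libraries were lowest. Tuba3a and Tuba3b, near-identical alpha-tubulin genes whose reads the counting may have split, were at 85.9, 43.4 and 159 CPM against 363 to 1577 CPM and at 9.52, 2.43 and 15.3 CPM against 38.9 to 205 CPM. Tppp, which stabilises microtubules, was at 6.06, 3.16 and 7.80 CPM against 23.9 to 55.1 CPM, and Syne4, a nuclear envelope linker, at 3.60, 1.24 and 5.55 CPM against 11.1 to 40.5 CPM. Fgf11 was at 1.99, 1.05 and 7.49 CPM against 17.5 to 31.2 CPM, and Slc25a25 at 19.6, 14.9 and 67.4 CPM against 153 to 285 CPM. Sh2b2, an adaptor of receptor kinases, had a log2 difference of -2.46 ± 0.37 (SE).

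Other measures were tested as well. The first was litter date, taken from the labels and not used by the rule, with genotype as a covariate. In edgeR's quasi-likelihood F test, 0 of 19136 genes (0%) differed between the 3 dates at an adjusted p under 0.05. An unadjusted p under 0.05 was found for 887, fewer than the share of 0.05 of genes that chance alone would give. The smallest adjusted p was 0.786. DESeq2 called 10 genes and limma on TPM called 0. For Stra8 the second and the third date differed from the first by -1.79 and -2.25 on the log2 scale (adjusted p 0.786). The globin-high libraries come from the second and the third date, so date and globin content overlap in part. As a covariate, these dates came less close to the genotype fold changes of the authors' deposited table than genotype alone, with root mean square differences of 0.224 and 0.143 on the log2 scale. The grouping that came closest (0.0838) has the globin-high libraries as 1 whole level. A DESeq2 refit with the dates of the labels differed from the authors' deposited table by a median of 0.248, against 1.19e-06 with the closest grouping. The dates of the labels thus do not rebuild that table as a covariate. The litter test above used the dates of the labels, so it does not cover the closest grouping. Whether the closest grouping is the litters was not tested, and under it the globin-high level and globin content cannot be told apart.

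The second was the relation between the erythroid level, without Hba-a1 and Hba-a2, and other lists within the 7 libraries under the threshold. The rule held Hba-a1 low in these 7 libraries. The level is a median over 16 tested genes, of which 3 were apart, so it measures blood content only in part. In deficient 2 it was 0.57, the same as in deficient 5. Over 7 libraries, the erythroid level and the meiotic entry level had Pearson's r = -0.390 (exact permutation p = 0.371, adjusted over 4 relations 0.768) and Spearman's rho = -0.714 (exact permutation p = 0.0881, adjusted 0.352), two-sided. Without the 2 libraries farthest from the median, deficient 2 and heterozygous 1, r was -0.524. For oocyte transcription factors r was -0.376 (exact permutation p = 0.384) and rho -0.25, and r turned to 0.842 without those 2 libraries. For macrophage genes r was 0.148 (exact permutation p = 0.741), and for ribosomal protein genes 0.113 (exact permutation p = 0.768), which turned to -0.876 without those 2 libraries. The adjusted p was 0.768 for these 3 as well. No genotype or date holds 6 of these libraries, so the levels were also centred within genotype, with an exact permutation within it, a choice made after seeing the data. The relation was then -0.460 for meiotic entry (exact permutation p = 0.139, adjusted over 4 relations 0.556), -0.214 for oocyte transcription factors, 0.301 for macrophage and -0.100 for ribosomal protein genes (adjusted 0.771 for these 3). Centred within litter date, r was -0.361, -0.752, 0.742 and 0.510 in the same order, with adjusted exact permutation p of 0.556 to 0.611.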

How the data were processed

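Whole-number counts per gene were deposited by the authors, and Trim Galore 0.5.0, HISAT2 2.1.0, Subread 1.6.2 (featureCounts) and GRCm38 are named in the submitters' processing notes. TPM values per gene were deposited by the authors, with StringTie 1.3.3b named in the submitters' processing notes, and served one alternative as log2(TPM + 1). The log2 fold changes of the authors' deposited table come from DESeq2, per the file headers. How the counting treated strand and multi-mapping reads is not given in the sources used, so overlapping and near-identical genes are uncertain. Of 55536 genes, 382 without a symbol (0.0632% to 0.0945% of counts) were left out.

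The counts were fitted with edgeR 4.0.16 in R 4.3.3 (quasi-likelihood, TMM, edgeR's filter by genotype, log2 CPM with a prior count of 2), with genotype and the globin-high set as terms. Tests of litter date and of the genotype by set interaction used Benjamini-Hochberg adjusted p-values with a threshold of 0.05. DESeq2 1.42.0, limma 3.58.1, other scalings and filters, models with litter date or replicate number and libraries left out were alternatives, and the fits were tested on simulated data. Level comparisons between libraries rest on 16707216 to 26983565 counts each.

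The libraries, the 24 gene lists (580 genes, 573 found, 507 tested) and the tests were chosen with earlier results of these data known. Named genes are the markers, up to 4 members per list with the largest difference, the 10 largest differences per direction beyond the rest of both genotypes, and the 8 smallest interaction p-values per direction. A gene that this rule names is not reported here. Other members are named beside a count or to show a level member, after their values were seen.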

Additional observations from a re-analysis of the deposited data

Results flagged for a closer look

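In 278 sets of 5 libraries of a genotype, 1 list level or gene each, 24 held a library whose gap to its nearest neighbour exceeded 0.71 of the whole range (Dixon's 95% critical value for 5). Chance flags about 1 in 20 sets, but many of these genes were named for their difference in the globin-high libraries, so that rate is no yardstick for deficient 5, Hba-a2 and Hbb-bs being close to the gene that chose it, and the values are descriptions. Of the 18 gene values in deficient libraries, all were from deficient 5, the globin-high library of that genotype. Gene values in this section are the log2 of CPM plus 0.1.

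Deficient 5 stood apart as higher for Hbb-bs at 9.01, Hba-a2 at 7.88, Lhx8 at 4.33, Trp53 at 4.58, Hist4h4 at 3.68 and Id1 at 7.97. The other deficient libraries lay at 5.37 to 6.00 for Hbb-bs, 2.85 to 3.25 for Lhx8, 3.68 to 3.74 for Trp53 and 5.98 to 6.48 for Id1. Deficient 5 stood apart as lower for Csf1r at 3.17, Cx3cr1 at 2.84, Hormad2 at 7.17, Ccdc36 at 6.29, Msh5 at 7.37, Shoc1 at 6.62, Taf10 at 6.81, Top2a at 8.31, Ccne1 at 4.64, Fgf11 at 2.93, Pparg at 5.32 and M1ap at 9.15. The other deficient libraries lay at 7.69 to 7.90 for Ccdc36, 8.11 to 8.39 for Msh5 and 10.55 to 10.79 for M1ap.

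Among list levels, deficient 5 stood apart for oocyte growth and maternal genes at 0.36, against -0.39 to -0.26 in the other deficient libraries, for male fetal germ cell genes at -1.43 (2 members tested) and for clustered histones at 1.296, against 0.042 to 0.31. Deficient 3, not a globin-high library, stood apart for apoptosis genes and p53 targets at 0.19, against -0.12 to -0.077. Heterozygous 3, not a globin-high library, stood apart for platelet and granulocyte genes at 1.84, against -0.36 to 0.093, and for mt-Nd3 at -0.42, against 4.09 to 5.61 in the other heterozygous libraries.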

How the results depend on the processing

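Counts of genes apart (899 higher, 1074 lower) moved by over 1.5 times under some settings. With library totals alone they were 1663 and 526, with no filter beyond 1 count 1541 higher, with limma on log2(TPM + 1) 274 lower, at 4-fold 122 and 106, and among heterozygous libraries alone 2358 and 2202. Leaving out 1 library gave 953 to 1923 higher and 851 to 1941 lower, the largest without deficient 5. The litter test called 540 genes with no filter and 10 by DESeq2, and the interaction test 74 with no filter, 23 by DESeq2 and 2 without the library labelled heterozygous 4 (0 to 2 over the libraries left out). Of genes higher in the libraries labelled heterozygous 4 and 5, the share higher in deficient 5 (87.5%) was 91.3% with library totals, 73.0% with no filter, 91.0% with 1 CPM in 5 libraries, 95.9% by limma and 81.6% to 88.5% with 1 library left out. The share of lower genes (93.7%) was 90.7%, 87.5%, 95.4%, 97.2% and 88.2% to 93.0% in the same order, and 91.8% with litter date in the model. The cause of these moves was not tested. In the 7 libraries, the relations of the erythroid level turned without deficient 2, to 0.483 for oocyte transcription factors, -0.363 for macrophage and -0.800 for ribosomal protein genes, and centred within genotype (an alternative chosen after seeing the data) to -0.100 for ribosomal protein genes. With 1 library left out, r ran from -0.787 to -0.154 for meiotic entry, -0.687 to 0.483 for oocyte transcription factors, -0.363 to 0.473 for macrophage and -0.800 to 0.446 for ribosomal protein genes. With a replicate block, 856 genes were apart as higher and 1010 as lower, and the litter and interaction tests called 0. Libraries with the same number share only that number: 3 of 5 same-numbered pairs had a correlation of deviations over 0.1 (range -0.265 to 0.592), and 1 of 5 heterozygous libraries correlated best with its own number. Under the alternatives, 59 list medians and 282 gene differences moved by more than 1 SD among the 7 libraries, and 421 and 1995 did not. Precision is limited by 3 globin-high libraries, 1 of them deficient, and by a low-count floor for genes such as Sohlh1 in deficient libraries.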

Other observations

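Heterozygous 3, with Hba-a1 at 87.3 raw CPM the highest of the heterozygous libraries under the threshold, held some other blood precursor genes, picked after their values were seen, at higher levels than the globin-high libraries. Itga2b, an integrin of platelet precursors, stood at 33.4 CPM in heterozygous 3, compared with 3.60, 2.20 and 9.21 CPM in the libraries labelled heterozygous 4, heterozygous 5 and deficient 5. Gp1ba, a platelet receptor subunit, was at 7.35 CPM there and at 1.28, 1.24 and 1.06 CPM in the globin-high libraries. Gata1 and Nfe2, transcription factors of red cell and platelet precursors, were at 4.37 and 6.79 CPM in heterozygous 3, the highest of all libraries. Other such genes went the other way: Pf4, a platelet chemokine, had 2.55 CPM there, below 8.38, 8.06 and 5.02 CPM in the globin-high libraries, and Klf1 stood at 1.90 CPM against 3.74, 5.50 and 3.70 CPM.

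The libraries that are high for Hba-a1 also appear together in the authors' deposited table of genotype fold changes. Of 9842 ways to group the 10 libraries as a covariate, 9811 could be fitted on 5356 genes with at least 500 counts in every library. The grouping closest to the authors' deposited table has the 3 globin-high libraries as 1 of its 3 levels, with a root mean square difference of 0.0838 on the log2 scale. The next closest was at 0.0860, genotype alone at 0.143 and the litter dates of the labels at 0.224. A DESeq2 refit with the closest grouping differed from the authors' deposited table by a median of 1.19e-06 and by at most 0.00555 over 31181 genes. The median was 0.101 for the next closest and 0.248 for the litter dates of the labels.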
